A study of Mus musculus with 18 samples.

Results

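The choroid plexus is a sheet of secretory epithelium inside the brain ventricles, and 32 of the 18683 genes in the table, grouped as genes of this epithelium, are described here across 2 brain regions of male mice. The 32 were picked by name from genes that were more abundant in the hippocampus of 5xFAD mice than in that of wildtype mice, so the size of that difference is what chose them and is given as a description only. The prefrontal libraries and the treated mice played no part in that comparison, although some of their values were known when the list was drawn up. Other readings use the 5xFAD PBS or wildtype hippocampal libraries again. These are the spread between those libraries, the proportions of the genes to each other in hippocampus, and hippocampal comparisons with treated mice or with cortex. They are not independent of the choice and are a description too.

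Choroid plexus epithelium makes cerebrospinal fluid by moving sodium, chloride, bicarbonate and water from blood to ventricle, and its tight junctions form a barrier between blood and fluid. It also loads the fluid with carrier proteins, hormones and vitamins, among them transthyretin and folate. The tissue hangs in the ventricles, beside the hippocampus among other places, and the cortex has none of its own.

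The study collected 18 libraries of total RNA, in 6 groups of 3, from prefrontal cortex and hippocampus. In each region there were wildtype C57BL/6J mice given phosphate-buffered saline (PBS) into a vein, 5xFAD mice given PBS in the same way, and 5xFAD mice given extracellular vesicles (EV) prepared from human breast milk. All mice were male, the labels give the strain as C57BL/6J throughout, and dosing ran from 5 to 6 months of age with an injection every 3 days, 10 in all. The mice went through behavioural tests and were perfused with cold PBS before the tissue was taken. 5xFAD mice carry mutant human transgenes driven by the neuronal Thy1 promoter and deposit amyloid early in life. No group of wildtype mice given vesicles is among the 18 libraries, so vesicles are compared with PBS within 5xFAD mice only. Whether the replicates came from different mice is not stated, so a p-value here speaks only of the spread from library to library, and that spread may be technical.

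Depth was similar across libraries, at 26437852 to 36901744 reads in listed genes. Levels are FPKM, fragments scaled by gene length and library size, which can be set side by side between genes. Thy1 matched the genotype labels, at 432 to 506 FPKM in the 6 wildtype and 768 to 1415 FPKM in the 12 5xFAD libraries. Cst7, a microglial gene, also matched, at 0.144 to 0.586 FPKM in wildtype and 46.9 to 184 FPKM in 5xFAD.

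The tissue content or the choroid plexus genes set 3 libraries apart. EV replicate 3 of prefrontal cortex held transcripts of cerebellar neurons that were far lower in the other 8 prefrontal libraries. Of 10 such genes, picked after their values were seen, all 10 were highest in that library and 9 were over 10-fold above the highest of the other 8. Pcp2, a Purkinje cell gene, stood at 177 FPKM there against 0.350 FPKM or less, and Gabra6, a granule cell receptor subunit, at 89.8 FPKM against 0.133 FPKM or less. Of 6 neocortical genes, 5 were lower in it than in any other prefrontal library, among them Lamp5 at 49.3 FPKM against 76.6 to 102 FPKM. EV replicate 3 of hippocampus is set apart by the choroid plexus genes, and it differed in other values too. It had the fewest reads of all libraries, 26437852, and the highest Thy1 and Cst7, 1415 and 184 FPKM. Its neocortical sum was 69.7 FPKM, against 38.2 to 51.9 FPKM in 5xFAD PBS and 54.0 to 72.0 FPKM in wildtype hippocampus. Its cerebellar sum, 22.9 FPKM, lay inside the range of the hippocampal libraries, 17.98 to 29.16 FPKM. 5xFAD PBS replicate 3 of hippocampus was high in part of a list of thalamus and habenula neuron genes. The sum over 7 genes was 37.5 FPKM, of which Prkcd was 22.2 FPKM, against 16.2 to 22.0 FPKM in the other 8 hippocampal libraries. It was the highest of the 9 for 4 of the 7, namely Tcf7l2, Prkcd, Gbx2 and Lef1. Tcf7l2, a transcription factor of thalamic neurons, stood at 4.31 FPKM against 1.30 FPKM or less. Gng8 was lower in it than in the other 8 (0.296 FPKM against 0.312 to 0.657 FPKM), and Nwd2 and Tac2 lay inside their range.

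The regulators among the 32 include Otx2 and Msx1, homeodomain transcription factors of the choroid plexus, and the 250 bases before the annotated gene starts were searched for the core letters that such factors are known to favour. RefSeq gave windows for 26 of the 32 genes (34 windows, since some genes have several starts). Ttr, Clic6, Folr1, Enpp2, Sostdc1 and Lbp had none in the table used. TAATCC, the core of OTX proteins, was found on either strand (GGATTA on the other) in 2 of the 34 windows, 5.88%, against 6.25% of all 32851 windows of the same length. TAATTG, a core of MSX proteins (CAATTA on the other strand), was found in 4 of 34, 11.8%, against 7.17% of all windows. The TAATCC share in the 34 windows is close to that over all windows. The TAATTG share is higher, but its 4 windows come from 3 genes, with 2 of them starts of Otx2, and the difference was not tested. A match is a description, not a binding site. Printed here, because they hold a match, are windows of Otx2 and Abca4 with TAATCC and of Kcnj13 and Tmem72 with TAATTG, which Otx2 has in 2 further windows. Each printed window holds 1 match and runs 5′ to 3′ on the gene's strand from RefSeq on GRCm38.p6, with the matched core (or its reverse complement) in capitals.
Otx2 upstream, chr14:48665110-48665359, minus strand: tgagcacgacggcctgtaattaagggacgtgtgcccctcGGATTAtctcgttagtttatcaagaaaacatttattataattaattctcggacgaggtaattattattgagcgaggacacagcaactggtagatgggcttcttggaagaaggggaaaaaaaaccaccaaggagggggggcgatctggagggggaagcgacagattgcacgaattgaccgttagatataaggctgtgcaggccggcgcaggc
Abca4 upstream, chr3:122044210-122044459, plus strand: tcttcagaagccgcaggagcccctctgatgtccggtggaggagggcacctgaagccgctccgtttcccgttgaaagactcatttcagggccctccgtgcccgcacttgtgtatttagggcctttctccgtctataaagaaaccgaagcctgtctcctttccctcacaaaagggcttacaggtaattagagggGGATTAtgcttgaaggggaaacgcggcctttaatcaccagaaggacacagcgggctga
Kcnj13 upstream, chr1:87394730-87394979, minus strand: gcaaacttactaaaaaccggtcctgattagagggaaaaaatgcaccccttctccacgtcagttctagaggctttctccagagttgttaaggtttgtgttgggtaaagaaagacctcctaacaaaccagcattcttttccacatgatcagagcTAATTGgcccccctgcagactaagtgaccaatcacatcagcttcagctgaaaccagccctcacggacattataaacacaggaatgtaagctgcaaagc
Tmem72 upstream, chr6:116716759-116717008, minus strand: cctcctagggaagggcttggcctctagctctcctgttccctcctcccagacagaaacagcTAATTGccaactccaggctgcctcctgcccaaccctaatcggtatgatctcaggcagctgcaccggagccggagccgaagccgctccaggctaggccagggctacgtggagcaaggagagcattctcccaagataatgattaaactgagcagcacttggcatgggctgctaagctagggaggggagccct
The core begins 211 bases before the start in this Otx2 window, 58 before it in Abca4, 98 in Kcnj13 and 190 in Tmem72. All 4 genes were among the 32 that were high together in the hippocampal libraries described next.

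In the hippocampus of 5xFAD mice given PBS the 32 genes stood far above the wildtype level, and they did so in all 3 libraries. In bulk RNA more cells of a type and more RNA per cell cannot be told apart. Together the 32 genes made up 0.0339 to 0.0748% of all FPKM in the wildtype libraries and 0.932%, 2.61% and 0.944% in the 5xFAD PBS libraries. Ttr alone, the thyroid hormone and retinol carrier of the cerebrospinal fluid, was 79.6 to 84.1% of the members' sum in 5xFAD PBS and 26.8 to 58.8% in wildtype.

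Ttr in hippocampus stood at 29.7, 76.5 and 159 FPKM in wildtype, 2532, 8684 and 2697 FPKM in 5xFAD PBS and 5532, 2207 and 178 FPKM in 5xFAD EV. The wildtype libraries themselves differed several-fold, and 5xFAD PBS replicate 2 held over 3 times as much as its group mates, so the groups do not overlap but neither is tight. EV replicate 1 lay among the 5xFAD PBS values, EV replicate 2 a little below them, and EV replicate 3 lay just above the highest wildtype library.

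The other secreted and carrier proteins were high in the same 5 libraries. Enpp2, the secreted lysophospholipase autotaxin, stood at 55.7, 72.1 and 65.9 FPKM in wildtype, 432, 1060.1 and 454 FPKM in 5xFAD PBS and 868, 372 and 75.7 FPKM in 5xFAD EV. It is also made by oligodendrocytes, and its wildtype level was the second highest of the 32 genes after Ttr. Folr1, the folate receptor that carries folate across the epithelium, stood at 0.872, 1.44 and 1.76 FPKM in wildtype, 14.00, 50.4 and 15.2 FPKM in 5xFAD PBS and 33.7, 13.3 and 1.43 FPKM in 5xFAD EV. Kl, klotho, a membrane and shed hormone co-receptor, stood at 3.75, 3.97 and 4.97 FPKM in wildtype, 27.7, 61.9 and 24.9 FPKM in 5xFAD PBS and 50.4, 20.9 and 4.29 FPKM in 5xFAD EV. In Enpp2, Folr1 and Kl EV replicate 3 fell within or just above the wildtype range. Sostdc1, a secreted antagonist of BMP and Wnt signals, stood at 1.56, 1.75 and 2.77 FPKM in wildtype, 11.05, 34.5 and 11.1 FPKM in 5xFAD PBS and 25.6, 9.92 and 2.25 FPKM in 5xFAD EV. Lbp, the lipopolysaccharide-binding protein, stood at 2.04, 3.002 and 4.89 FPKM in wildtype, 9.53, 27.9 and 8.497 FPKM in 5xFAD PBS and 18.3, 7.74 and 1.77 FPKM in 5xFAD EV. EV replicate 3 lay inside the wildtype range in Sostdc1 and below it in Lbp. Wfdc2 (a secreted whey acidic protein), F5 (coagulation factor V), Defb11 (a beta-defensin) and Col8a1 (a short-chain collagen) ran from 0 to 0.680 FPKM in wildtype and from 2.49 to 18.3 FPKM in 5xFAD PBS.

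Channels and transporters, the machinery of fluid secretion, were likewise high in every 5xFAD PBS library. Clic6, a chloride channel family protein, stood at 0.6799, 1.27 and 1.36 FPKM in wildtype, 19.9, 50.1 and 19.2 FPKM in 5xFAD PBS and 35.3, 13.3 and 2.11 FPKM in 5xFAD EV. Kcnj13, an inward rectifier potassium channel, stood at 0.138, 0.564 and 0.616 FPKM in wildtype, 8.37, 21.2 and 7.89 FPKM in 5xFAD PBS and 15.4, 5.100 and 0.578 FPKM in 5xFAD EV. Kcne2, a potassium channel subunit of the apical membrane, stood at 0.121, 0.0944 and 0.433 FPKM in wildtype, 9.67, 24.2 and 9.38 FPKM in 5xFAD PBS and 20.4, 6.38 and 0.406 FPKM in 5xFAD EV. These 3 genes were at 1.36 FPKM or less in all 3 wildtype libraries. Slc13a4, a sulfate transporter, stood at 1.92, 5.56 and 8.78 FPKM in wildtype, 14.9, 26.7 and 10.99 FPKM in 5xFAD PBS and 16.03, 7.68 and 4.21 FPKM in 5xFAD EV. Car12, a membrane carbonic anhydrase, stood at 6.29, 5.05 and 6.15 FPKM in wildtype, 13.2, 21.6 and 12.8 FPKM in 5xFAD PBS and 21.5, 10.9 and 4.73 FPKM in 5xFAD EV. The ratio of the 5xFAD PBS mean to the wildtype mean was 3.24 for Slc13a4 and 2.72 for Car12, against 27.0 for Clic6, 28.5 for Kcnj13 and 66.8 for Kcne2. Aqp1 (the apical water channel), Slc4a5 (a sodium bicarbonate cotransporter), Trpv4 (a cation channel) and Slco1a5 (an organic anion carrier) ran from 0.0114 to 0.637 FPKM in wildtype and from 0.432 to 17.4 FPKM in 5xFAD PBS.

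Junction, cytoskeleton and regulatory genes made up the rest. Otx2, which specifies and maintains the plexus, stood at 0.256, 0.374 and 0.278 FPKM in wildtype, 2.82, 7.35 and 2.32 FPKM in 5xFAD PBS and 4.399, 1.81 and 0.391 FPKM in 5xFAD EV. Cldn2, a claudin of leaky epithelial tight junctions, stood at 0.116, 0.421 and 0.429 FPKM in wildtype, 4.09, 13.7 and 4.52 FPKM in 5xFAD PBS and 8.602, 3.096 and 0.50 FPKM in 5xFAD EV. Calml4, a calmodulin-like protein of brush borders, stood at 1.82, 2.58 and 3.200 FPKM in wildtype, 10.3, 40.4 and 11.8 FPKM in 5xFAD PBS and 17.4, 7.901 and 1.52 FPKM in 5xFAD EV. In Otx2 and Cldn2 EV replicate 3 was the highest of the 4 libraries made up of it and the 3 wildtype libraries, while in Calml4 it was the lowest of them. Msx1, the simple-epithelium keratins Krt8 and Krt18, the claudin Cldn1, the prolactin receptor Prlr, the retinoid enzymes and carriers Rdh5 and Abca4, the membrane protein Steap1, and Prr32 and Tmem72 were all higher in each 5xFAD PBS library than in each wildtype library too.

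**Figure D1:**
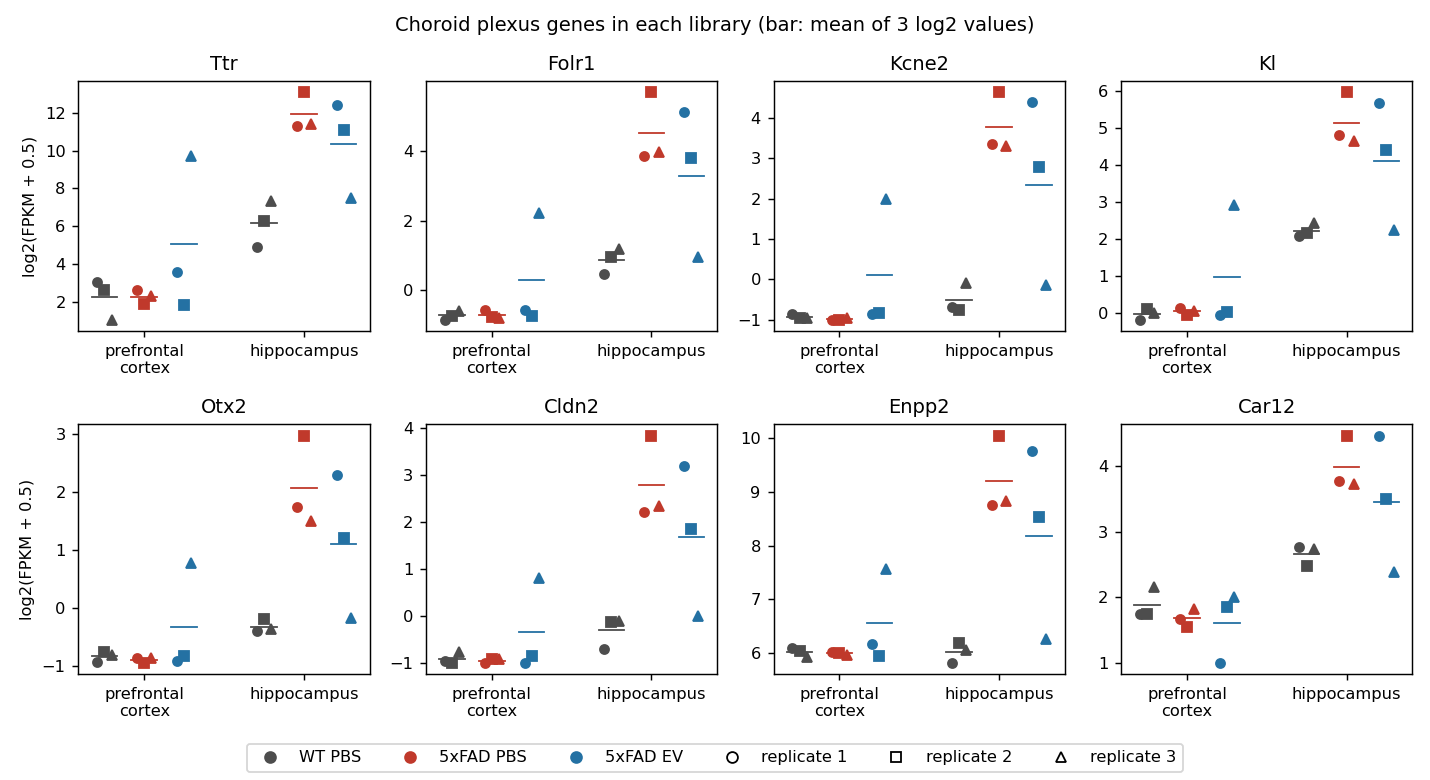
Levels of 8 of the genes in each library, as log2(FPKM + 0.5), by region and group, with the replicate number as the symbol and a bar at the mean of the 3 log2 values. The 5xFAD PBS hippocampal libraries lie above all 3 wildtype ones in each panel, EV replicate 3 of hippocampus lies near wildtype, and EV replicate 3 of prefrontal cortex lies above the other 8 in all panels but Car12.

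Since this contrast chose the genes, its counts are only a record. All 32 genes passed the filter in hippocampus (at least 0.5 FPKM in 3 of the 9 libraries), but 16 to 19 of them were under 0.5 FPKM in each wildtype library, so many passed only through 5xFAD libraries and had to differ. limma called 16 of the 32 higher at an adjusted p under 0.05, where 4.59% of the 13305 genes tested were called (4.19% higher and 0.406% lower), and in 32 of 32 the groups did not overlap, against 16.5% of all genes tested (9.03% were apart in the lower direction). The median log2 difference was 2.83 for the 32 genes and 0.02 for all genes tested, from 1.15 for Slco1a5 to 5.76 for Ttr. The count of 16 was 28 with only the 6 libraries compared in the fit, 10 with a pseudocount of 1, 4 without a filter and 2 with voom on reads, and leaving out any 1 of the 6 libraries left 0 (wildtype replicate 1 or 2) to 4. Without 5xFAD PBS replicate 3, the library high in thalamic genes, the count was 4 and the median log2 difference 3.08. The 9 genes that define the epithelium in the marker list (Ttr, Folr1, Otx2, Kl, Aqp1, Clic6, Kcnj13, Kcne2 and Cldn2) are all among the 32.

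**Figure D2:**
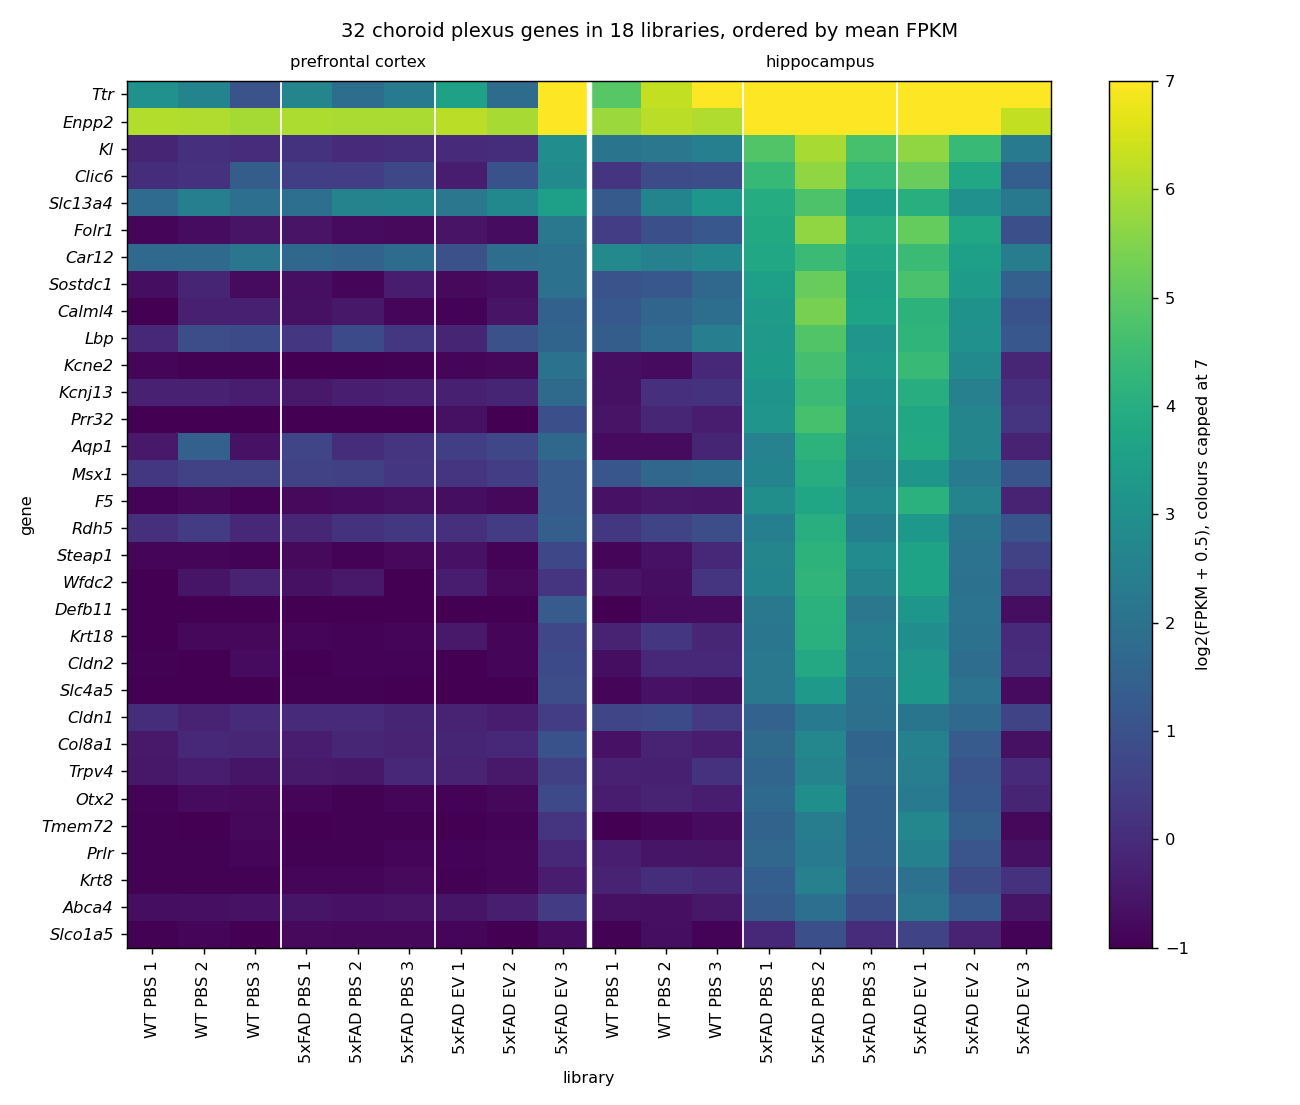
All 32 genes (rows, by mean FPKM) in all 18 libraries (columns), coloured by log2(FPKM + 0.5) with colours capped at 7. The block of bright columns is made of 5xFAD PBS replicates 1 to 3 and EV replicates 1 and 2 of hippocampus, with EV replicate 3 of hippocampus dark and EV replicate 3 of prefrontal cortex brighter than its neighbours.

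The libraries of one group were not alike, and the genes moved together between them. 5xFAD PBS replicate 2 was the highest of the 9 hippocampal libraries for 28 of the 32 genes, against 25.4% of all genes tested, and EV replicate 1 for the other 4 (8.31%). 5xFAD PBS replicate 2 exceeded the mean of replicates 1 and 3 by 1.56-fold (Cldn1) to 4.14-fold (Defb11), and by 3.32-fold for Ttr. The summed level of ependymal genes, those of the ciliated lining of the ventricles, was also highest in that library. The sum over 12 genes was 192 FPKM there, 56.2 and 49.8 FPKM in 5xFAD PBS replicates 1 and 3 and 55.6 to 72.2 FPKM in wildtype. So the ependymal sum lay inside the wildtype range in 5xFAD PBS replicate 1 and below it in replicate 3. The choroid plexus genes of the same libraries were far above wildtype. Of the 11 ependymal genes tested 8 were above 0, with a median log2 difference of 0.54. limma called 0 of them in this contrast, with 2 at an unadjusted p under 0.05, against 18.8% of all genes. Genes of meningeal fibroblasts, the cells of the brain's coverings and of the plexus stroma, summed over 12 genes to 51.1 to 111 FPKM in wildtype and 88.1 to 167 FPKM in 5xFAD PBS. Of the 11 tested 1 was called, against 4.59% of all genes. No gene of either list was at 0 in all libraries of a region, and only Tmem212 was at 0 in any library. Fenestrated endothelium, the leaky vessel lining of the plexus stroma, was followed by Plvap and Esm1, whose sum was 3.62 to 5.15 FPKM in wildtype and 5.66 to 8.27 FPKM in 5xFAD PBS, without overlap. Plvap alone passed the filter, with a log2 difference of 0.44 (SE 0.14, limma adjusted p = 0.111). The part of ependymal, meningeal and endothelial content in the members' difference was not tested.

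**Figure D3:**
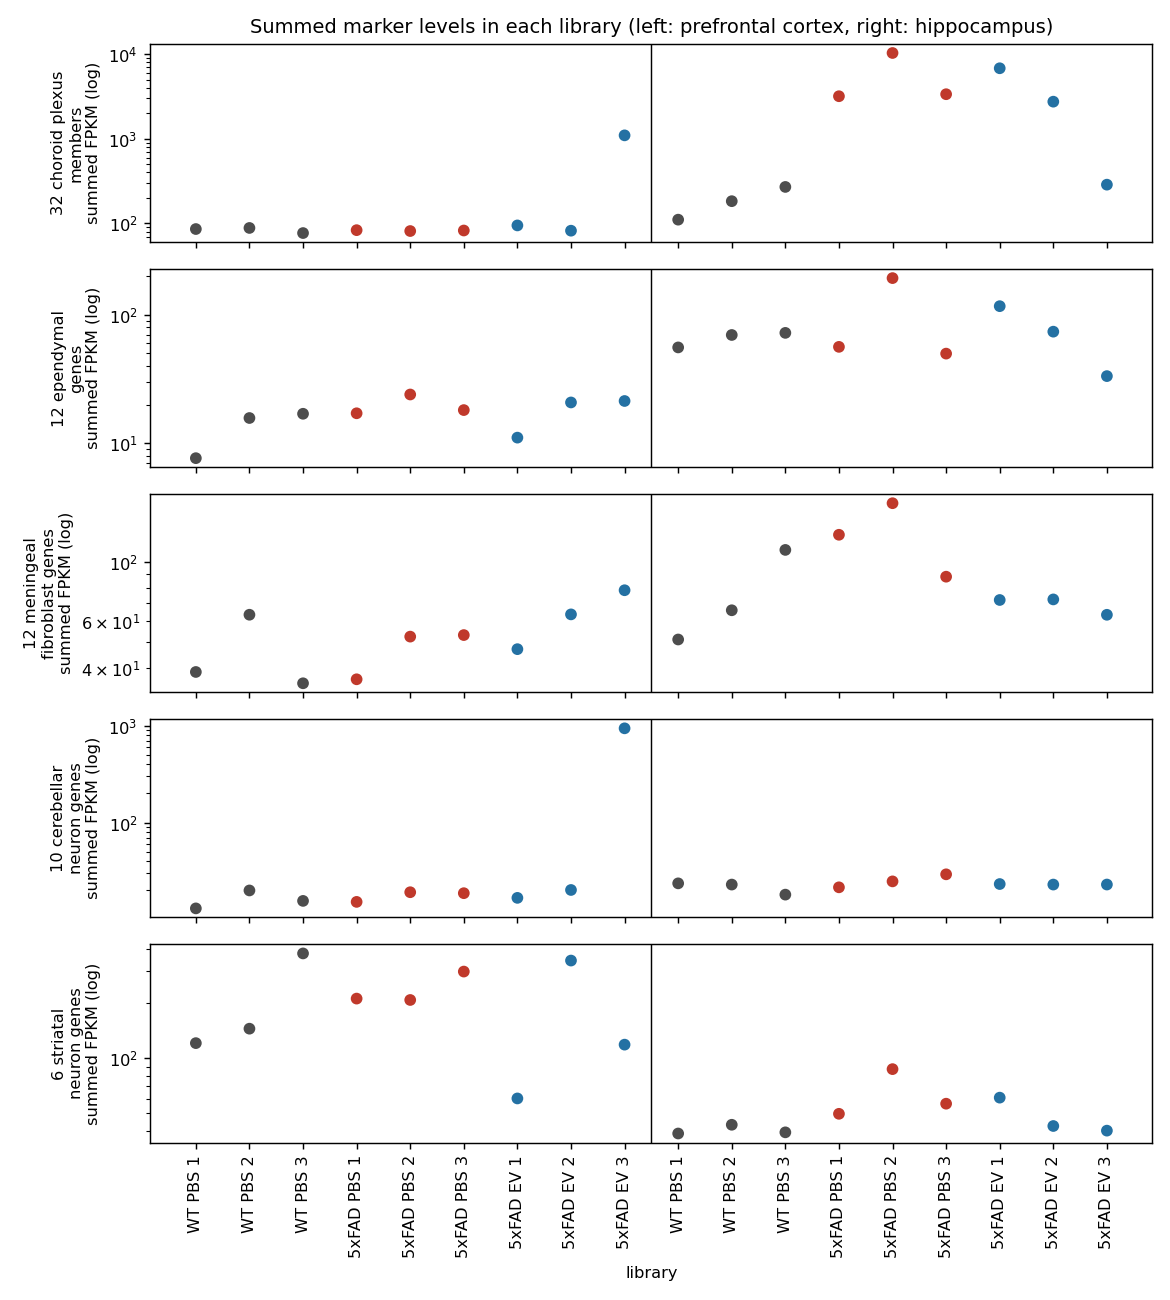
Summed FPKM (log axes) of the 32 choroid plexus genes and of 4 marker lists in each of the 18 libraries, coloured by group. The choroid plexus sum is 111 to 270 FPKM in wildtype hippocampus and 2745 FPKM or more in all 5xFAD hippocampal libraries but EV replicate 3 (287 FPKM), and the cerebellar sum is 942 FPKM in EV replicate 3 of prefrontal cortex against 12.96 to 29.16 FPKM in the other libraries.

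The remaining genes of the pathway, from a list of choroid plexus and fluid-secretion genes that are not members, were looked at beside the 32. Of the 31 that the data hold, 29 were tested in hippocampus and 27 were above 0 in 5xFAD PBS against wildtype. The median log2 difference was 1.05. The groups did not overlap for 21 with 5xFAD higher (16.5% of all genes tested) and 1 with 5xFAD lower (9.03%). At an unadjusted limma p under 0.05 there were 23, against 18.8% of all genes. limma called 3 higher and 0 lower, against 4.19% and 0.406% of all genes. The 3 were Cab39l, a scaffold of kinases that drive ion transport (1.44, SE 0.34, limma adjusted p = 0.0433), Epn3, an endocytic epsin (2.10, SE 0.40, limma adjusted p = 0.0155) and Rbm47, an RNA-binding protein of epithelia (1.53, SE 0.31, limma adjusted p = 0.0202). Igf2, a growth factor that the plexus secretes, had a log2 difference of 2.002 (SE 0.55, limma adjusted p = 0.0779), and Slc12a2, the chloride cotransporter of the apical membrane, 0.76 (SE 0.19, limma adjusted p = 0.0594). Atp1b1, a subunit of the sodium pump that neurons also make in quantity, had -0.07 (SE 0.10, limma adjusted p = 0.751). The range of limma adjusted p over fits without 1 of the 6 libraries was 0.0657 to 0.128 for Cab39l, 0.0371 to 0.0658 for Epn3 and 0.024 to 0.0852 for Rbm47. Leaving out any 1 library thus lost the call of Cab39l, and leaving out wildtype replicate 2 or 3 or 5xFAD PBS replicate 2 lost all 3. This list too was drawn up with earlier results of these data known.

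In the hippocampus of 5xFAD mice, all 32 genes had a lower mean with vesicles than with PBS, and none passed the test. The PBS libraries here are among those that chose the genes as high, so the shared direction is only a description. The median log2 difference, EV minus PBS, was -0.997 over the 32 genes and -0.02 over all 13305 genes tested, from -1.59 for Ttr to -0.43 for Abca4. limma called 0 of 32 and 0 of all genes (0%), with 0 of 32 at an unadjusted p under 0.05 (3.9% of all genes), and voom also called 0. The EV and PBS libraries overlapped in 32 of 32 genes, while over all genes tested the EV libraries lay wholly below for 5.21% and wholly above for 2.3%.

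That difference rests mostly on EV replicate 3. It was the lowest of the 6 5xFAD hippocampal libraries for 32 of 32 genes, against 16.5% of all genes tested. It was at or below the highest wildtype library for 21 of 32, near the share of all genes, 70.2%, so that count is not particular to the members. EV replicates 1 and 2 were both above all 3 wildtype libraries for 31 of 32, against 20.9%. The genes were chosen as low in those wildtype libraries, and 16 to 19 of them were under 0.5 FPKM in each. That count is therefore a description only and says nothing of the vesicles. Without EV replicate 3 the median log2 difference was -0.17 (all genes -0.03), with 25 genes below and 7 above 0. Ttr then had -0.16, Enpp2 -0.06, Folr1 -0.06 and Kl -0.10. Among the genes above 0 were Abca4 at 0.32, Tmem72 at 0.25 and F5 at 0.19. limma called 0 of 32 without that library as well. The median over the 32 genes was also moved by other libraries, to -0.60 without 5xFAD PBS replicate 2 and to -1.81 without EV replicate 1.

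Other markers moved with the same library or groups. The ependymal sum was 33.3 FPKM in EV replicate 3, the lowest of the 9 hippocampal libraries, against 116 and 73.7 FPKM in EV replicates 1 and 2. The red cell sum over 5 genes was 59.9 FPKM in it and 10.04 to 59.9 FPKM in the EV group, against 3.35 to 9.90 FPKM in the PBS group. The meningeal sum was 63.3 to 72.3 FPKM in the EV and 88.1 to 167 FPKM in the PBS libraries. That sum lay apart in the 2 groups, and so did 9 of the 11 meningeal genes tested, while Dcn and Lum overlapped. Over all genes tested 5.21% lay apart with EV lower. limma called 0 of the 11, with 8 at an unadjusted p under 0.05, against 3.9% of all genes. The fenestrated endothelium sum was 4.83 to 5.23 FPKM in the EV and 5.66 to 8.27 FPKM in the PBS libraries. The part of these contents in the members' difference was not tested. Of the 29 other choroid plexus genes tested 0 were called and 3 were above 0, with a median of -0.48, which was -0.12 with 8 above 0 without EV replicate 3, and this contrast shares its PBS libraries with the one before.

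**Figure D4:**
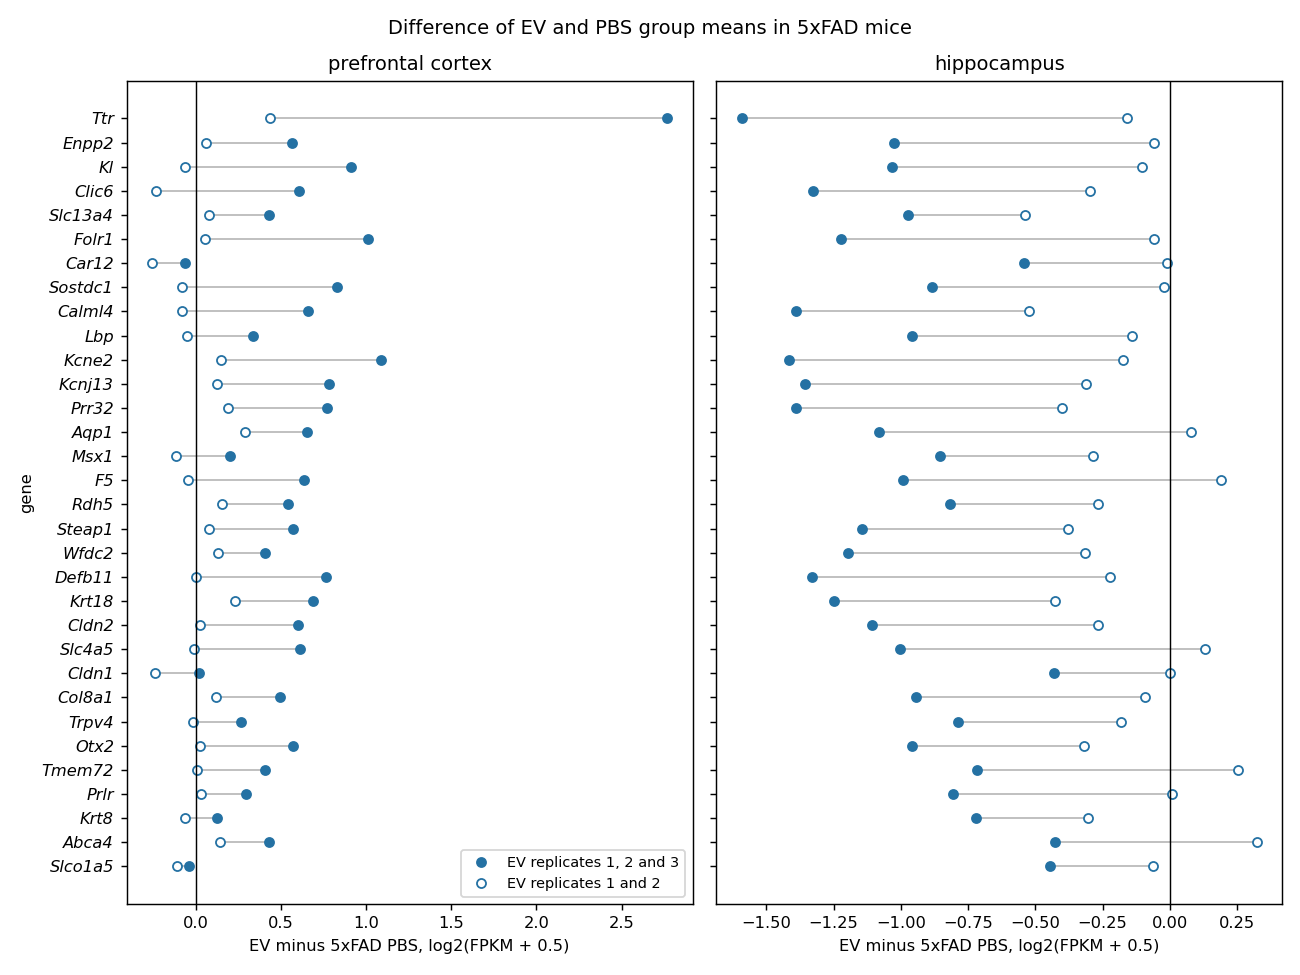
Difference of group means, EV minus PBS in 5xFAD mice, in log2(FPKM + 0.5) for each of the 32 genes, with all 3 EV libraries (filled) and with replicates 1 and 2 (open). The medians move from 0.57 to 0.02 in prefrontal cortex and from -0.997 to -0.17 in hippocampus when EV replicate 3 is left out.

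Prefrontal cortex, which has no choroid plexus of its own, held the genes at low levels in 8 of its 9 libraries. Their sum was 77.0 to 94.7 FPKM in those 8, most of it Enpp2, and 22 to 25 of the 32 genes were under 0.5 FPKM in each, with 2 to 5 at 0 reads. Only 10 of the 32 passed the filter there (Ttr, Enpp2, Kl, Clic6, Slc13a4, Car12, Lbp, Aqp1, Msx1 and Rdh5), of 13055 genes tested.

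Against wildtype, 5xFAD PBS mice showed no difference in these genes in prefrontal cortex that passed the test. limma called 0 of the 10, where it called 1.96% of all genes tested (1.82% higher and 0.138% lower), and voom called 0. At an unadjusted p under 0.05 there were 0 of the 10, against 8.16% of all genes. The groups overlapped in all 10, while 9.75% of all genes tested lay apart with 5xFAD higher and 4.99% with 5xFAD lower. The median log2 difference was 0.01 over the 10 genes and 0.02 over all genes tested, and over all 32 genes, tested or not, it was -0.0033 with 14 above and 16 below 0. Ttr stood at 7.81, 5.64 and 1.56 FPKM in wildtype, 5.76, 3.18 and 4.47 FPKM in 5xFAD PBS and 11.6, 3.08 and 836 FPKM in 5xFAD EV. The wildtype and 5xFAD PBS values interleave, and its log2 difference was 0.04 (SE 1.55, limma adjusted p = 0.998). Enpp2 stood at 67.5, 65.5 and 59.99 FPKM in wildtype, 64.5, 63.1 and 62.2 FPKM in 5xFAD PBS and 71.4, 60.9 and 189.9 FPKM in 5xFAD EV. Its 6 PBS libraries lay between 60.0 and 67.5 FPKM, with a log2 difference of -0.02 (SE 0.33, limma adjusted p = 0.998). The spread behind these standard errors is shared with the EV group, which holds EV replicate 3. With only the 6 libraries compared in the fit, the SE was 0.45 for Ttr (limma adjusted p = 0.992) and 0.07 for Enpp2 (limma adjusted p = 0.976). The 2 regions were fitted apart, so the difference between them in the effect of genotype was not tested.

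Slc13a4 had the largest genotype difference of the 32 in prefrontal cortex, 0.32 (SE 0.32, limma adjusted p = 0.998), with 2.996, 4.98 and 3.26 FPKM in wildtype, 3.31, 5.44 and 5.65 FPKM in 5xFAD PBS and 4.02, 6.12 and 10.9 FPKM in 5xFAD EV. Car12 had the lowest, -0.20 (SE 0.24, limma adjusted p = 0.998), with 2.85, 2.84 and 3.95 FPKM in wildtype, 2.67, 2.42 and 3.04 FPKM in 5xFAD PBS and 1.496, 3.100 and 3.49 FPKM in 5xFAD EV. In both the groups overlap. The lowest Slc13a4 values, in wildtype replicates 1 and 3 and 5xFAD PBS replicate 1, are in the libraries lowest in the meningeal sum (38.5, 34.9 and 36.2 FPKM). The highest, EV replicate 3, is in the library highest in that sum (78.3 FPKM). The part of meningeal tissue in these Slc13a4 values was not tested. Clic6 stood at 0.532, 0.614 and 2.08 FPKM in wildtype, 0.885, 0.883 and 1.16 FPKM in 5xFAD PBS and 0.271, 1.52 and 6.65 FPKM in 5xFAD EV. Its highest values among the 8 libraries, wildtype replicate 3, EV replicate 2 and 5xFAD PBS replicate 3, are in the libraries that were also highest in Drd2, a receptor of striatal neurons (16.4, 14.8 and 12.03 FPKM). Its lowest value, EV replicate 1, is in the library lowest in Drd2 (0.162 FPKM). The part of striatal tissue in these Clic6 values was not tested.

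With vesicles, the prefrontal means of 30 of the 32 genes were above those with PBS, and that rests mostly on EV replicate 3. The median log2 difference was 0.55 over the 10 tested genes and 0.57 over all 32, against 0.02 over all genes tested, and without EV replicate 3 it was 0.0044 and 0.02. limma called 0 of the 10 with and without that library, with 0 at an unadjusted p under 0.05 (4.72% of all genes), and 0 of all 13055 genes (0%). The groups overlapped in all 10, while 6.68% of all genes lay apart with EV higher and 3.94% with EV lower. Ttr had a log2 difference of 2.77 (SE 1.55, limma adjusted p = 0.822), and 0.44 without EV replicate 3. Red cell and meningeal markers also had higher means with vesicles in this region, while ependymal and striatal markers mostly had lower ones. The red cell genes had a median log2 difference of 2.09 (1.83 without EV replicate 3), with 3 of 5 apart, and all 11 meningeal genes tested were above 0, with a median of 0.35 (0.17 without it). limma called 0 of either list (4 red cell and 0 meningeal genes at an unadjusted p under 0.05). EV replicate 3 had the highest meningeal sum of the 9 prefrontal libraries, 78.3 FPKM against 34.9 to 63.5 FPKM, and the highest fenestrated endothelium sum, 6.96 FPKM against 4.02 to 5.94 FPKM. The 6 striatal genes were all below 0, with a median of -1.02 (-0.80 without it). Of the 10 ependymal genes tested 2 were above 0, with a median of -0.19 (-0.43 without EV replicate 3). The ependymal sum of EV replicate 3, 21.4 FPKM, lay inside the range of the other 8 libraries, 7.68 to 24.0 FPKM. The part of these contents in the members' values was not tested.

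EV replicate 3 of prefrontal cortex held 0.342% of its FPKM in the 32 genes, against 0.0231 to 0.0287% in the other 8 libraries. It was the highest of the 9 for 31 of 32 genes, where it was for 33.4% of all genes tested. It was over 2-fold above the highest of the other 8 for 24 of 32, against 1.48% of all genes tested. Those shares of all genes cover genes that passed the filter, which 22 of the 32 did not. Of the 10 that passed, it was the highest for 9 and over 2-fold above the other 8 for 5. Car12 was the 1 gene not highest in it but highest in wildtype replicate 3.

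The genes that are near 0 in cortex show it most plainly. Folr1 stood at 0.0564, 0.106 and 0.164 FPKM in wildtype, 0.172, 0.0841 and 0.0771 FPKM in 5xFAD PBS and 0.173, 0.0958 and 4.11 FPKM in 5xFAD EV, so that EV replicate 3 was 23.7-fold above the next library. Kcne2 stood at 0.0482, 0.0180 and 0.0155 FPKM in wildtype, 0, 0 and 0.0165 FPKM in 5xFAD PBS and 0.0554, 0.0654 and 3.46 FPKM in 5xFAD EV, which is 52.9-fold. Kcne2 had 0 reads in 5xFAD PBS replicates 1 and 2 and at most 4 in any of the 8, against 214 in EV replicate 3. Kcnj13 stood at 0.338, 0.339 and 0.283 FPKM in wildtype, 0.230, 0.301 and 0.323 FPKM in 5xFAD PBS and 0.315, 0.391 and 2.88 FPKM in 5xFAD EV. Otx2 stood at 0.0258, 0.0926 and 0.0698 FPKM in wildtype, 0.0471, 0.0173 and 0.0476 FPKM in 5xFAD PBS and 0.0296, 0.0630 and 1.203 FPKM in 5xFAD EV. Cldn2 stood at 0.0134, 0 and 0.0909 FPKM in wildtype, 0, 0.0300 and 0.0275 FPKM in 5xFAD PBS and 0, 0.0547 and 1.24 FPKM in 5xFAD EV. In these 5 genes no library other than EV replicate 3 exceeded 0.391 FPKM. Kl stood at 0.387, 0.577 and 0.512 FPKM in wildtype, 0.616, 0.477 and 0.543 FPKM in 5xFAD PBS and 0.474, 0.523 and 7.05 FPKM in 5xFAD EV, with a log2 difference of 0.91 (SE 0.62, limma adjusted p = 0.822) that was -0.06 without EV replicate 3. Sostdc1 stood at 0.114, 0.383 and 0.0942 FPKM in wildtype, 0.130, 0.0363 and 0.266 FPKM in 5xFAD PBS and 0.0747, 0.132 and 3.47 FPKM in 5xFAD EV. Calml4 stood at 0, 0.320 and 0.322 FPKM in wildtype, 0.136, 0.212 and 0.0487 FPKM in 5xFAD PBS and 0.0273, 0.169 and 2.27 FPKM in 5xFAD EV. Both were high in EV replicate 3 alone. Lbp stood at 0.450, 1.34 and 1.25 FPKM in wildtype, 0.707, 1.23 and 0.739 FPKM in 5xFAD PBS and 0.389, 1.48 and 2.47 FPKM in 5xFAD EV, with EV replicate 2 next below EV replicate 3. Defb11 had 0 reads in all of the other 8 libraries and 23 in EV replicate 3, which is at least 6.71-fold over a floor of 3 reads in the library where 3 reads are worth most.

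The proportions of the genes to Ttr were compared between regions, since they do not use the total. In each library the wildtype mean (hippocampus) or the mean of EV replicates 1 and 2 (prefrontal cortex, EV replicate 3) was subtracted, and each gene was set against 1000 FPKM of Ttr. Enpp2 was 150, 116 and 149 FPKM per 1000 of Ttr in 5xFAD PBS replicates 1 to 3 of hippocampus, 148 and 145 in EV replicates 1 and 2 and 149 in EV replicate 3 of prefrontal cortex. Folr1 was 5.17, 5.71 and 5.31, then 5.95 and 5.65, and 4.79 in the same libraries. Kl was 9.59, 6.71 and 7.92, then 8.48 and 7.89, and 7.90. In these 3 genes the prefrontal library lies within the hippocampal range or just under it.

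Over the 31 genes other than Ttr, 29 had a prefrontal proportion within 2-fold of the hippocampal 5xFAD PBS mean, with a median ratio of 0.989. Wfdc2 was the lowest, at a ratio of 0.294, from 0.612 per 1000 of Ttr in prefrontal cortex against 2.08 ± 0.107 (SD, n = 3) in hippocampus. Its prefrontal value rests on few reads, 17 in EV replicate 3, with 6 and 2 in EV replicates 1 and 2, whose mean was subtracted. Slc13a4 was the highest, at 2.47, from 7.02 against 2.84 ± 0.934 (SD, n = 3). Slc13a4 stood at 3.00 to 6.12 FPKM in the 8 low prefrontal libraries, so that about as much was subtracted from its 10.9 FPKM as was kept. EV replicate 3 also had the highest meningeal sum of the prefrontal libraries, and the part of that content in this ratio was not tested. Otx2 had 1.40 against 0.875 ± 0.138 (SD, n = 3) and Prr32 1.62 against 2.97 ± 0.357 (SD, n = 3). Across the 31 genes the log10 proportions of the 2 regions had a Pearson r of 0.94, as a description: the points share their libraries and the Ttr value, and genes are not independent replicates.

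**Figure D5:**
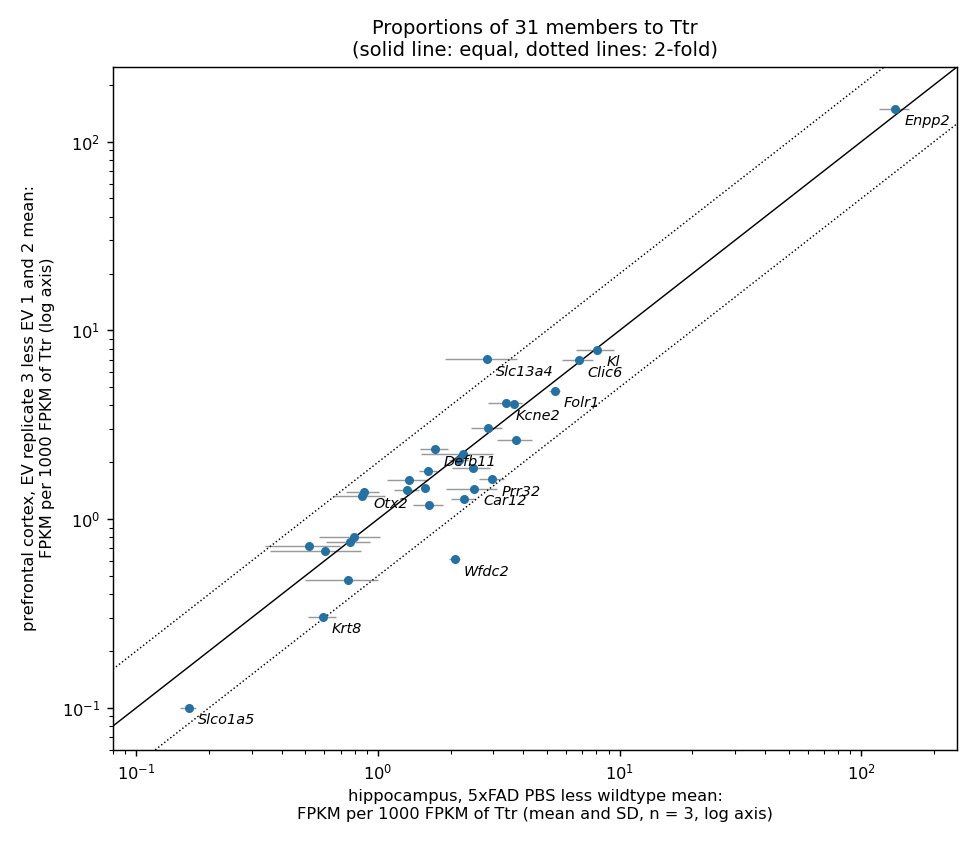
FPKM per 1000 FPKM of Ttr for 31 genes, in hippocampus of 5xFAD PBS mice (mean and SD of 3 libraries, wildtype mean subtracted) and in EV replicate 3 of prefrontal cortex (mean of EV replicates 1 and 2 subtracted), on log axes. Points lie along the line of equality from 0.0996 (Slco1a5) to 149 (Enpp2), with Wfdc2 below and Slc13a4 above the 2-fold lines.

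Among the 5xFAD PBS libraries of hippocampus the proportions to Ttr varied with a median coefficient of variation of 14.8%, from 2.23% for Cldn2 to 41.0% for Cldn1. Cldn2, Sostdc1 (4.20%), Wfdc2 (5.15%) and Folr1 (5.16%) kept the closest step with Ttr. Abca4 (34.4%), Prlr (33.6%), F5 (33.1%) and Slc13a4 (32.9%) varied most after Cldn1. In those 4 genes 5xFAD PBS replicate 2, the library richest in Ttr, had a lower proportion than replicate 1. F5 for example stood at 2.91, 1.44 and 2.42 per 1000 of Ttr. This was not particular to those genes. Enpp2 (116 in replicate 2 against 150 in replicate 1) and Kl (6.71 against 9.59) were also lower, while Folr1 (5.71 against 5.17) was higher.

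In wildtype mice the hippocampus already exceeded prefrontal cortex in most of these genes. The difference, hippocampus minus prefrontal cortex, was above 0 for 29 of 32, with a median log2 difference of 0.42. The libraries lay apart with hippocampus higher for 19 of 32, against 19.4% of the 13509 genes that passed the filter in either region. These wildtype hippocampal libraries had a part in the choice of the genes, so the count is a description. Only 10 of the 32 passed the filter in prefrontal cortex, and 16 to 19 were under 0.5 FPKM in each wildtype hippocampal library. Ttr had the largest difference, 3.93, followed by Kl at 2.25, Calml4 at 2.10, Sostdc1 at 1.85 and Folr1 at 1.58. Enpp2 had -0.0013 and Aqp1 -0.69, with Aqp1 at 0.227, 2.23 and 0.149 FPKM in wildtype, 1.09, 0.541 and 0.644 FPKM in 5xFAD PBS and 0.9004, 1.13 and 2.72 FPKM in 5xFAD EV in prefrontal cortex. Aqp1 was thus the gene of the 32 that was highest in cortex relative to hippocampus in wildtype, with wildtype replicate 2 far above its group mates.

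By the likeness rule, the genes outside the 32 whose levels over the 9 hippocampal libraries followed the members' mean most closely were Pla2g5 (Pearson r 0.998), Sulf1 (0.996), Slc16a8 (0.996), Wdr86 (0.996), Sult1c2 (0.995), Ace (0.992), Slc4a2 (0.992), Slc2a12 (0.992), Drc7 (0.991) and Col9a3 (0.991). Ace, for example, stood at 2.13, 3.70 and 4.84 FPKM in wildtype, 17.2, 35.0 and 17.2 FPKM in 5xFAD PBS and 31.9, 13.4 and 3.71 FPKM in EV. Ace, an angiotensin-converting peptidase, Slc16a8, a lactate transporter, and Slc4a2, an anion exchanger, are on the list of other choroid plexus genes. Over the 9 prefrontal libraries the closest were Fam107b, Cbln1, Homer3, Stk17b, Il16, Car8, Cnksr3, Shisa6, Psd2 and Chn2, with r from 0.997 to 0.992. The prefrontal likeness is carried by EV replicate 3, as with Car8, which stood at 1.84 to 3.71 FPKM in the other 8 libraries and 161 FPKM in it. None of the 10 prefrontal genes is among the 10 hippocampal ones.

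Some of the values are less certain for reasons of annotation. By the GENCODE annotation of GRCm38, another build than that of the files, 7 of the 32 genes have exons that overlap another gene. Kcnj13 overlaps Gigyf2 on the opposite strand, and Rdh5 overlaps Bloc1s1 on the same strand. The use of strand in counting is not given in the sources used here, so reads of such pairs cannot be told apart. This touches the prefrontal level of Kcnj13, 0.230 to 0.391 FPKM in the 8 low libraries.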

How the data were processed

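The authors deposited 1 table of FPKM for 18683 genes, and its 18 value columns matched the samples by name. Per the submitters' processing notes, fastp, HISAT2, HTSeq and the build GRCm39 were used, with no version given. Gene lengths and the counting of strand: not given in the sources used here. For 100% of genes the 18 deposited FPKM values were whole multiples of 1 step (relative tolerance 1e-06), which gave the reads behind each value.

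Tests used limma 3.58.1 (R 4.3.3) on log2(FPKM + 0.5) with an intensity trend, the 9 libraries of a region in 1 fit, after dropping genes that reach 0.5 FPKM in fewer than 3 of the 9, two-sided, with Benjamini-Hochberg adjustment over all genes tested and a call at 0.05. Differences are on that log2 scale, which understates the change of low genes. The code was tested on simulated data. As an alternative, limma's voom on the recovered reads called 250 genes in prefrontal cortex and 542 in hippocampus for genotype, and 0 for vesicles in either region.

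The members, the marker lists and the tests were chosen with earlier results of these data known. Values in every library were given for the 10 members with the highest mean FPKM plus Otx2, Kl, Kcnj13, Kcne2, Folr1 and Cldn2 for their roles. The likeness rule took the 10 other genes per region with the highest Pearson r of log2 values with the members' mean z-score. The cerebellar and neocortical lists, and Thy1, Cst7 and Aqp1 with library values, were picked after values were seen. Alternatives were other pseudocounts (0.1 and 1), no filter, median scaling, voom, only the 6 libraries compared, a replicate block and leaving out each library. Same-numbered libraries deviated together in 1 comparison, genotype in prefrontal cortex (correlations 0.213, 0.509 and 0.169). That pairing comes from the values, not from the labels.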

Additional observations from a re-analysis of the deposited data

Results flagged for a closer look

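Krt18, a keratin of simple epithelia, lay above the 5xFAD PBS mean in all 3 EV libraries of prefrontal cortex and below it in all 3 of hippocampus, which is why it is listed here. In prefrontal cortex the 3 EV libraries stood at 0.234, 0.0414 and 1.12 FPKM, all above the mean of the 5xFAD PBS libraries (0.0464, 0.0227 and 0.0417 FPKM), and the difference of the means was 0.4295 FPKM. EV replicate 2 (2 reads) lay inside the range of the PBS libraries (1 to 2 reads), the gene did not pass the filter there, and without EV replicate 3, the library with cerebellar transcripts, the difference was 0.101 FPKM. In hippocampus the EV libraries stood at 7.03, 3.43 and 0.486 FPKM, all below the mean of the PBS libraries (3.95, 16.5 and 4.67 FPKM). EV replicate 1 lay above 2 of the 3 PBS libraries, and the place of all 3 EV libraries below the mean rests on 5xFAD PBS replicate 2. The difference between the regions was not tested.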

How the results depend on the processing

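The count of 0 members called for genotype in prefrontal cortex, and for vesicles in both regions, was 0 under every alternative run, including leaving out each library and voom without EV replicate 3, an alternative chosen after the data were seen. For genotype in hippocampus, the contrast that chose the members, the count of 16 became 10 with a pseudocount of 1, 4 without a filter, 2 with voom and 28 with only the 6 libraries compared, and 0 to 4 when 1 library was left out; the cause was not tested. The replicate block gave 12 there and changed no other call.

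Signs of single members in prefrontal cortex changed when 1 library was left out. For genotype the log2 differences ranged from -0.56 to 0.45 for Ttr, -0.07 to 0.01 for Enpp2, 0.00 to 0.14 for Kl, -0.20 to 0.46 for Clic6 and -0.39 to 0.09 for Lbp. For vesicles they ranged from -0.06 to 1.41 for Kl, -0.24 to 1.37 for Clic6, -0.26 to 0.24 for Car12 and -0.05 to 0.82 for Lbp. With voom and without EV replicate 3 they were -0.12 for Kl, -0.53 for Clic6 and -0.14 for Lbp. Where a fit leaves 2 libraries in a group, their spread is taken from all groups of the region. Members under 0.5 FPKM rest on few reads, as with Defb11 in wildtype hippocampus (0, 1 and 1 reads).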
